A study of Mus musculus with 6 samples.

Results

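Chemokines are small secreted proteins that attract leukocytes, and in some cases other migrating cells and growing axons, along concentration gradients. They act through G protein-coupled receptors, while atypical receptors bind chemokines without classical G protein signalling and remove or display them. In the nasal mucosa, epithelial, endothelial and resident immune cells make them, and the ligands named inflammatory are switched on by cytokines and microbial products, whereas homeostatic ligands are made steadily. Expression of this family was followed in the olfactory epithelium of mice, the lining of the nose in which olfactory sensory neurons lie among supporting and basal cells. Genes were chosen by symbol alone: a probe set had to carry exactly 1 gene symbol, either Ccl, Cxcl, Ccr or Cxcr followed by digits only, or 1 of Xcl1, Xcr1, Cx3cl1, Ackr1, Ackr2, Ackr3 and Ackr4. That gave 50 genes, 31 ligands and 19 receptors, out of 23332 probe sets, each gene with a single probe set.

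The occluded group was olfactory epithelium from the side of a closed nostril, 5 days after unilateral naris occlusion, and the contralateral group was epithelium from the open side. Each group had 3 arrays, from 3 C57Bl/6 mice in all, of unstated age. Per the labels, occlusion lowers odour stimulation on its own side and raises it on the other, and the open side therefore was no untreated control. Which arrays share a mouse is not stated, so p-values reflect the spread among arrays only. Values are log2 levels made by the authors with RMA, and differences are occluded minus contralateral on that scale, so a difference of 1 is a doubling of the measured signal. The median level per array lay between 7.94 and 8.12. Occluded replicate 1 stood apart, with correlations across probe sets of 0.977 to 0.983 with the other arrays, against 0.986 to 0.989 among those, and differences without it are also given beside many of the results. Markers of the labelled tissue gave strong signals. Omp, the marker protein of mature olfactory neurons, had 13.74, 13.61 and 13.65 on the occluded side, against 13.54, 13.51 and 13.64 on the contralateral side. Cyp2g1, an enzyme of supporting cells and glands, had 13.49, 13.35 and 13.37 on the occluded side, against 13.48, 13.44 and 13.47 on the contralateral side. The connective tissue markers Col1a1 and Col1a2 were strong too, with mean levels of 13.60 and 13.53. Values therefore cannot be taken as epithelial alone.

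None of the 50 genes passed the test, which was limma with p-values adjusted (Benjamini-Hochberg) across every probe set at a threshold of 0.05. Across the whole array 0% of probe sets passed, and the adjusted p of the 50 genes lay between 0.823 and 0.999. An unadjusted p under 0.05 was found for 3 of 50 genes, or 6%, against 5.28% of all probe sets. They were Ccr3 on the higher side, 1 gene where 3.81% of all probe sets were called higher, and Cxcr3 and Cxcl14 on the lower side, 2 genes where 1.47% were called lower. Those shares are near the background and are no result about the family. The sides did not overlap in 5 genes, or 10%, against 10.7% of all probe sets. The occluded side lay above in 1 of these, Ccl5 (7.49% of all probe sets), and below in 4, Cxcr3, Cxcl14, Cxcr1 and Ccl2 (3.24% of all probe sets). Of the 50 differences 25 were above 0 and 25 below, whereas 64.8% of all probe sets were above 0. Most of the 50 genes gave little signal, and counts by signal level are given below. The median difference was -0.0037 for the 50 genes and 0.06 for all probe sets. All 50 estimates were smaller than 1.5-fold. The sign turned in 26 of the 50 genes when some single array was left out and in 9 under at least 1 of 3 other scalings. The 95% intervals reached 0.20 to 0.73 to either side of the estimate, so changes of moderate size were not detectable for many of the genes.

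**Figure D1:**
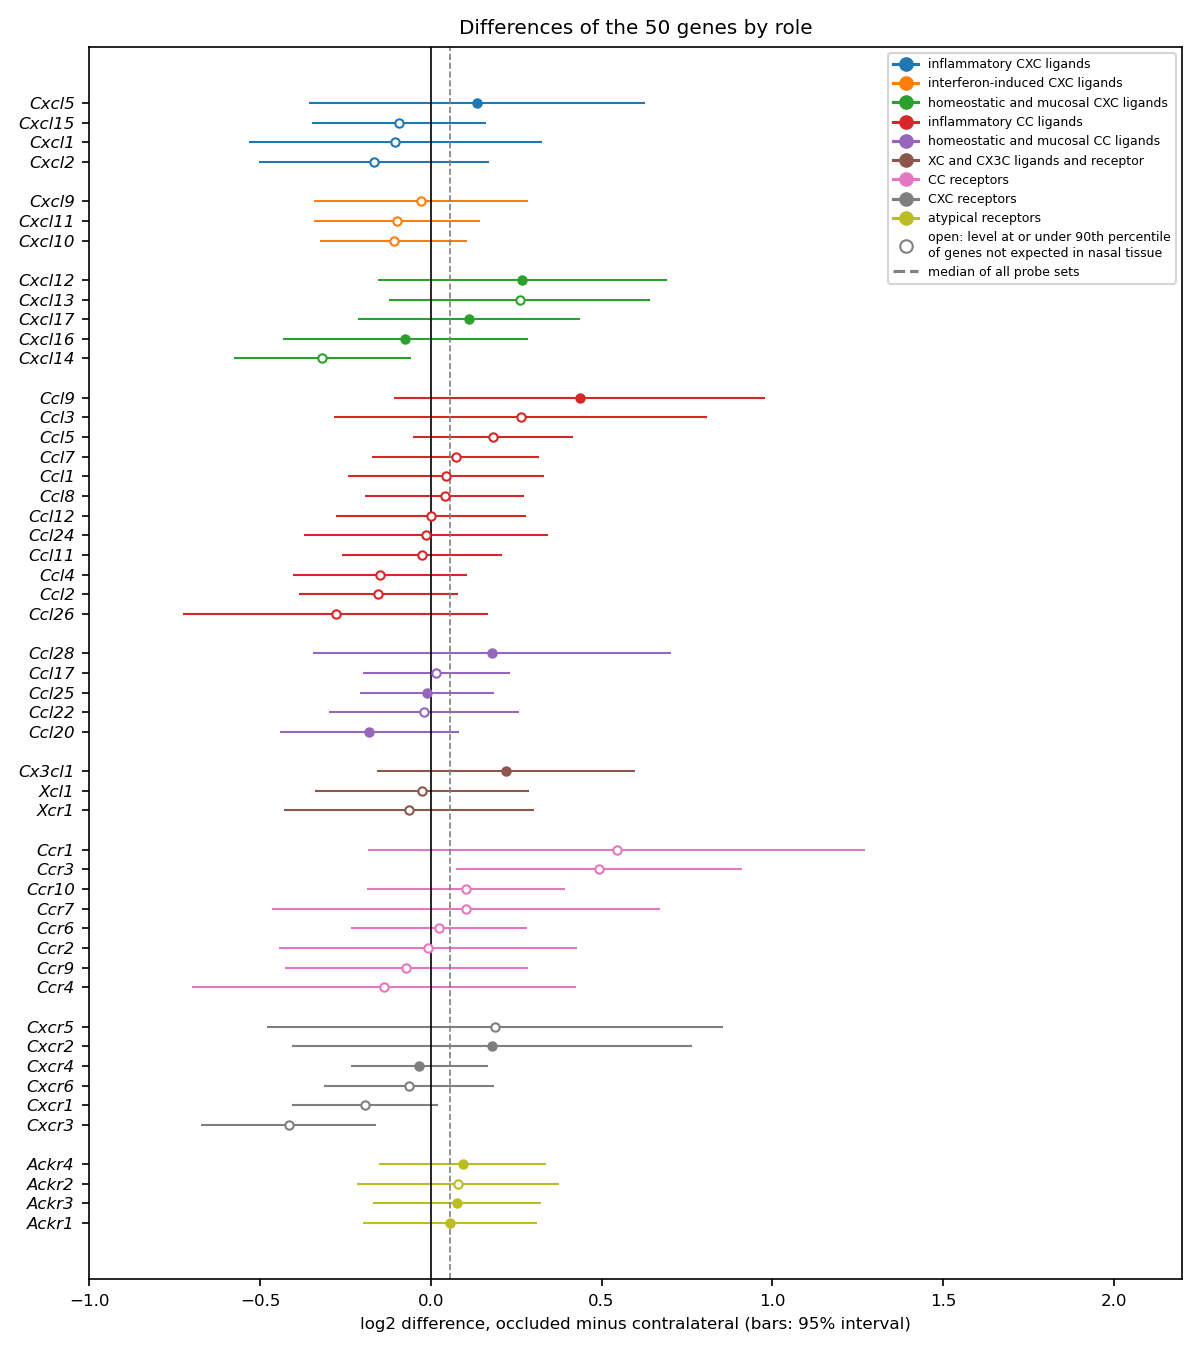
Log2 difference, occluded minus contralateral (x axis), of each of the 50 genes (rows, grouped and coloured by role), with its 95% interval from limma. Open points are genes whose mean level lay at or under 7.22, and the dashed line is the median of all probe sets, 0.06; 47 of the 50 intervals include 0, the exceptions being Ccr3, Cxcr3 and Cxcl14.

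Many of the genes gave little signal. As a rough guide to background, 25 measured genes not expected in nasal tissue, such as liver and sperm genes, had a median level of 6.15 and a 90th percentile of 7.22. Of the 50 genes 14 lay above that percentile (28%), against 64.5% of all probe sets. They were the ligands Cxcl5, Cxcl12, Cxcl16, Cxcl17, Ccl9, Ccl20, Ccl25, Ccl28 and Cx3cl1 and the receptors Cxcr2, Cxcr4, Ackr1, Ackr3 and Ackr4. Differences of the other 36 genes are not well measured, since background signal can compress them, which was not tested here. Probe sets differ in how strongly they bind, so levels are not ranked between genes. The 14 genes had a median difference of 0.10, with 10 above 0, and without occluded replicate 1 of 0.0041, with 7 above 0. Of the 25 genes not expected in nasal tissue 7 were above 0, with a median difference of -0.05. In 5 of those 25 the occluded side lay below without overlap, and in 0 above. The even split of the 50 genes is therefore not read as a shift of the family against the whole array.

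The upstream sequences of 8 genes are shown because these are the inducible ligands that mark inflammation (Cxcl1, Cxcl2 and Cxcl10) and genes with the smallest p or the largest estimates (Cxcl14, Ccl9, Ccr1, Ccr3 and Cxcr3). Each is the 250 bases before an annotated start, 5′ to 3′ on the gene's strand, from RefSeq (GRCm38.p6). For Ccr3 and Cxcl14 that start and its window lie inside the gene (chr9:124017825-124031692 and chr13:56288643-56296811), not at its outer edge. Capitals mark matches on either strand to 2 motifs, the NF-κB consensus of 10 letters and TATAAA, the TATA box. Matches may overlap each other.
Cxcl1: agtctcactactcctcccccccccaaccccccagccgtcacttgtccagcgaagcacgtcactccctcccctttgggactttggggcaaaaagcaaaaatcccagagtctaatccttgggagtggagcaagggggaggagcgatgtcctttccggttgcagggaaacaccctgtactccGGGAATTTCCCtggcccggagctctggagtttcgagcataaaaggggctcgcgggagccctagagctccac
Cxcl2: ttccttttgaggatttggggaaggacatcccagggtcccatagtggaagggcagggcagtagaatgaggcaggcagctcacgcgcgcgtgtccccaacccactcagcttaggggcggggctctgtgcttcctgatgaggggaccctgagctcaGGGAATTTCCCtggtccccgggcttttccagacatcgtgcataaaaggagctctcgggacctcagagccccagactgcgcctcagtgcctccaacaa
Cxcl10: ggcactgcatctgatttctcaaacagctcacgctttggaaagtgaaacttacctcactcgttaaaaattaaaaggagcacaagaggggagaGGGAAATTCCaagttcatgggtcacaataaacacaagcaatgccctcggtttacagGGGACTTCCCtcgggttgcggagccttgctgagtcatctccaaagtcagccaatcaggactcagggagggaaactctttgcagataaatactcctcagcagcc
Cxcl14: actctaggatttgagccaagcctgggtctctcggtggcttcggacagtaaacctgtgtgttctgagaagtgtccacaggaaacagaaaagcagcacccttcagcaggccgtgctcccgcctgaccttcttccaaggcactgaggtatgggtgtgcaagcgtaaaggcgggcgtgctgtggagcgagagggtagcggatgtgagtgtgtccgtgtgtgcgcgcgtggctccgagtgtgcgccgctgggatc
Ccl9: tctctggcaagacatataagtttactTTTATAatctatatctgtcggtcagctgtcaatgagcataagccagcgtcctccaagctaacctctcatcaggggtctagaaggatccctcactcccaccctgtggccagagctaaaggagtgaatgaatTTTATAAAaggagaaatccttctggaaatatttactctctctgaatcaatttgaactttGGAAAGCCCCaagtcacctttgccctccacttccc
Ccr1: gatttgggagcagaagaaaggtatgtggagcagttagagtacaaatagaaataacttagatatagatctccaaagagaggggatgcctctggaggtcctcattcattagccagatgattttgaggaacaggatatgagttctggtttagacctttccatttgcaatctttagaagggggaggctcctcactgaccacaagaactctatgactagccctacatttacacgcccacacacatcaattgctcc
Ccr3: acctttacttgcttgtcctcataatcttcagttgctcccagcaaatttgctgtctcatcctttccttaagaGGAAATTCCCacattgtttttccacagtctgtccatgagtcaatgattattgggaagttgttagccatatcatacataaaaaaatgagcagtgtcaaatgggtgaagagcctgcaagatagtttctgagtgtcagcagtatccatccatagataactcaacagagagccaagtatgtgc
Cxcr3: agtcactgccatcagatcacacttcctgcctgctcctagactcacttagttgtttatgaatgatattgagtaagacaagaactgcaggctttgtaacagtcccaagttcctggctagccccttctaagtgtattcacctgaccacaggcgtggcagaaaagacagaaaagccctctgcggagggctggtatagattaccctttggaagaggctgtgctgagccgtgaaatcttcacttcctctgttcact

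These windows lie at chr5:90890995-90891244 (plus strand) for Cxcl1, chr5:90903649-90903898 (plus strand) for Cxcl2 and chr5:92348890-92349139 (minus strand) for Cxcl10. The others are chr13:56296552-56296801 (minus strand) for Cxcl14, chr11:83578637-83578886 (minus strand) for Ccl9, chr9:123968693-123968942 (minus strand) for Ccr1, chr9:124021721-124021970 (plus strand) for Ccr3 and chrX:101734148-101734397 (minus strand) for Cxcr3. Of the 50 genes 36 had an entry in the promoter table. The NF-κB consensus was found in 8 of those 36 genes (22.2%), against 3.9% of all 32851 promoters in the table. Those 8 were Ackr2, Ccl20, Ccl9, Ccr3, Ccr6, Cxcl1, Cxcl10 and Cxcl2. In Cxcl1 its matches began 71 and 70 bases before the start, in Cxcl2 97 and 96 bases before it, and in Cxcl10 159 and 103 bases before it. Ccr3 had a match 179 bases before its start within the gene, and Ccl9 a match 35 bases before its start. Differences of the 8 genes were above 0 in 4 and below 0 in 4, with a median of -0.04. The TATA box was found in 12 of 36 genes (33.3%, against 12.4% of all promoters), Ccl9 among them. For both motifs the first share counts genes and the second counts promoters, and the 36 genes had 38 promoters, so the shares are not strictly alike. No match was found in the windows of Cxcl14, Ccr1 and Cxcr3. A match describes the letters only, and a gene without one may hold it elsewhere.

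The inflammatory CXC ligands, which attract neutrophils through Cxcr2, had 1 of 4 measured members above 0 and a median difference of -0.10. Cxcl5, made by epithelial cells, was the member of this group with a level above background, at 9.09, 8.59 and 9.25 on the occluded side, against 9.11, 8.60 and 8.82 on the contralateral side. The sides overlapped over most of their range, and its difference of 0.14 (SE 0.21) ran over -0.0019 to 0.33 as single arrays were left out. Cxcl1 had 6.67, 6.49 and 6.49 on the occluded side, against 6.32, 6.62 and 7.01 on the contralateral side. Its highest and its lowest array were both contralateral, and its difference of -0.10 (SE 0.18) turned to 0.08 without contralateral replicate 3. Cxcl2 had 5.65, 5.88 and 5.70 on the occluded side, against 6.10, 5.98 and 5.64 on the contralateral side, a difference of -0.17 (SE 0.14) at a level under the median of the background genes. Cxcl15, an epithelial chemokine of the lung, was at -0.09 (SE 0.11), also at background. These are the ligands whose upstream windows hold overlapping NF-κB matches in Cxcl1 and Cxcl2, and neither gene had separated sides.

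The interferon-induced ligands Cxcl9, Cxcl10 and Cxcl11 all bind Cxcr3, a receptor of activated T cells and natural killer cells. All 3 had differences below 0, with a median of -0.10, and all lay at background. Cxcl10 had 7.03, 7.00 and 7.02 on the occluded side, against 7.17, 7.01 and 7.20 on the contralateral side. The occluded arrays were close to each other and 2 of the contralateral arrays lay clearly above them, while contralateral replicate 2 was level with them, and the difference was -0.11 (SE 0.09). Cxcl11 was at -0.10 (SE 0.10) and Cxcl9 at -0.03 (SE 0.13). Their receptor Cxcr3 had the smallest unadjusted p of the family, 0.0065, with 6.67, 6.52 and 6.45 on the occluded side, against 7.10, 6.90 and 6.88 on the contralateral side. Every occluded array lay below every contralateral one. Cxcr3 averaged 6.55 ± 0.12 on the occluded side and 6.96 ± 0.12 on the contralateral side (SD, n = 3 each), and its difference was -0.42 (SE 0.11), with a 95% interval of -0.67 to -0.16, or a 1.33-fold lower level. The limma adjusted p was 0.823 and ranged from 0.0504 to 1.00 over the alternatives, and leaving out any 1 array gave differences of -0.48 to -0.35. Its level was between the median and the 90th percentile of the background genes. The T cell markers beside it had 0 of 6 measured genes above that percentile, a median difference of -0.0042, and a summed level (log2 of the sum of linear values) of 8.77 to 8.88 on the occluded side and 8.79 to 8.90 on the contralateral side; their part in the Cxcr3 value was not tested.

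Among the 5 homeostatic and mucosal CXC ligands 3 were above 0 and 2 below. Cxcl14, a chemokine made steadily by epithelia, had 6.64, 6.77 and 6.76 on the occluded side, against 7.14, 7.12 and 6.86 on the contralateral side. The occluded arrays all lay below the contralateral ones, with contralateral replicate 3 closest to them. Cxcl14 averaged 6.72 ± 0.07 on the occluded side and 7.04 ± 0.16 on the contralateral side (SD, n = 3 each); its difference was -0.32 (SE 0.11), with a 95% interval of -0.58 to -0.06, and the limma adjusted p was 0.823. Cxcl14 too lay between the median and the 90th percentile of the background genes. Cxcl12, the ligand of Cxcr4 that steers migrating cells and axons, had 8.85, 8.15 and 8.56 on the occluded side, against 8.30, 8.16 and 8.29 on the contralateral side. Occluded replicates 1 and 3 were above the contralateral arrays and replicate 2 was level with the lowest of them. The difference was 0.27 (SE 0.18), or 0.10 without occluded replicate 1. Cxcl13, which attracts B cells through Cxcr5, had 6.64, 6.12 and 6.18 on the occluded side, against 5.98, 5.97 and 6.21 on the contralateral side. Occluded replicate 1 made most of its difference of 0.26 (SE 0.16), which was 0.10 without it. Cxcl17, a chemokine of mucosal surfaces, had 9.07, 8.74 and 8.57 on the occluded side, against 8.70, 8.64 and 8.70 on the contralateral side. Its difference was 0.11 (SE 0.14) and turned to -0.03 without occluded replicate 1. Cxcl16, a membrane-bound ligand of Cxcr6, was at -0.07 (SE 0.15) with overlapping sides.

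**Figure D2:**
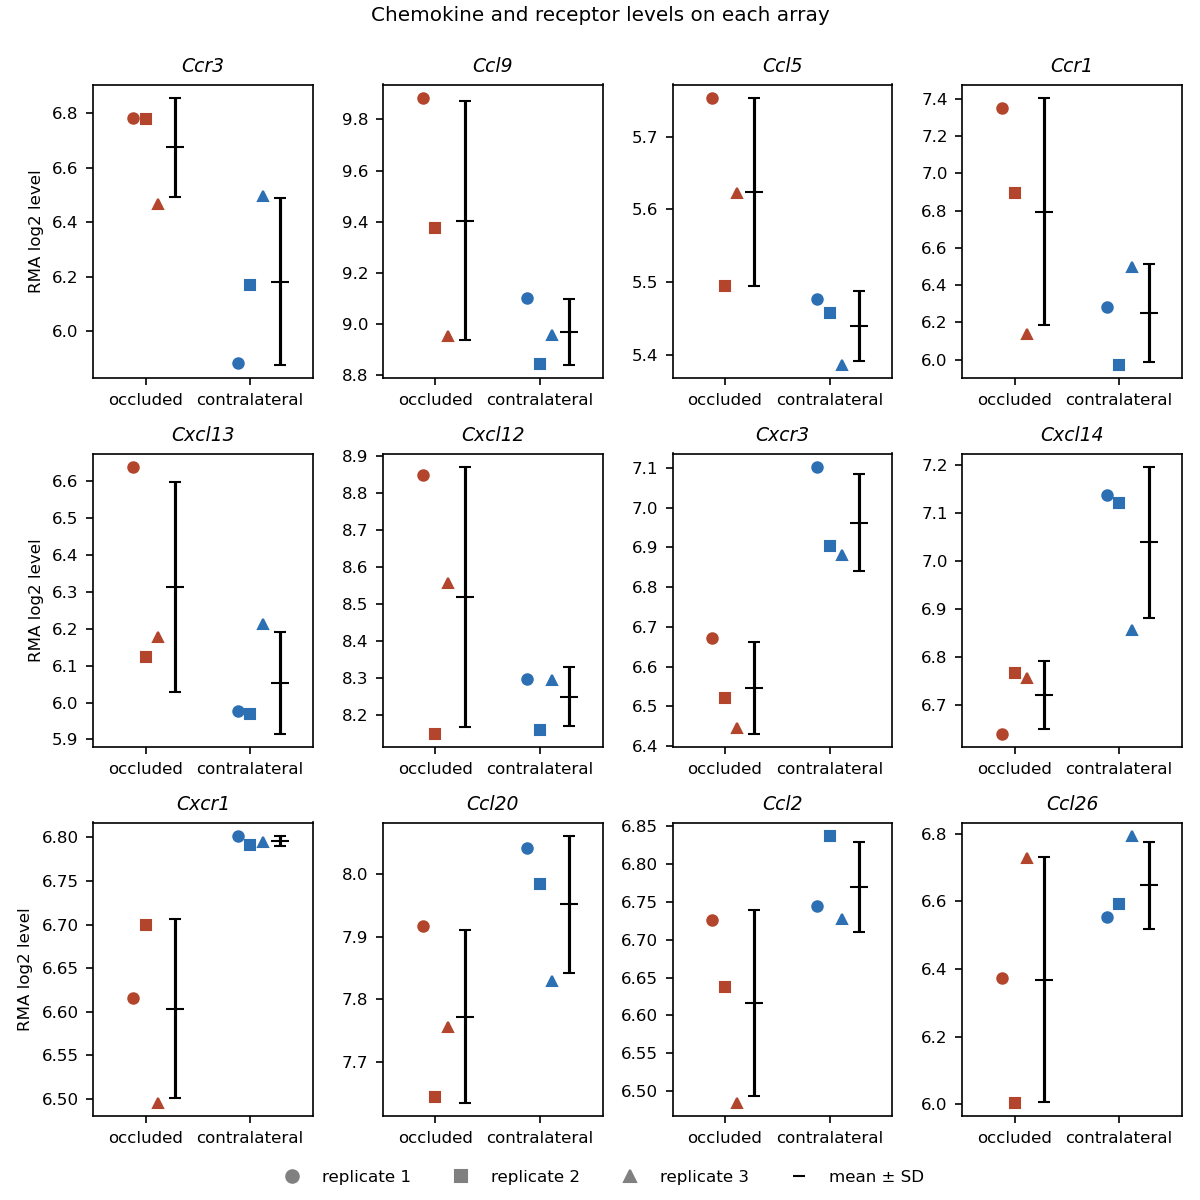
RMA log2 level (y axis, a scale of its own per panel) on each array for the 6 genes with the smallest unadjusted p among those with a difference above 0 (Ccr3 to Cxcl12) and the 6 among those below 0 (Cxcr3 to Ccl26), with the mean ± SD of 3 arrays per side. Red points are occluded and blue points contralateral, the shape gives the replicate number; the sides separate in Ccl5, Cxcr3, Cxcl14, Cxcr1 and Ccl2, and occluded replicate 1 is the highest array in all 6 plotted genes with a difference above 0 (by less than 0.01 in Ccr3).

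Of the 12 measured inflammatory CC ligands, which attract monocytes, eosinophils and T cells, 7 were above 0 and 5 below, with a median of 0.02. Ccl9, a myeloid chemokine that binds Ccr1, was the member with a level above background and had 9.88, 9.38 and 8.95 on the occluded side, against 9.10, 8.85 and 8.96 on the contralateral side. Occluded replicates 1 and 2 lay above all contralateral arrays, and replicate 3 was level with them. Ccl9 averaged 9.41 ± 0.47 on the occluded side and 8.97 ± 0.13 on the contralateral side (SD, n = 3 each). Its difference was 0.44 (SE 0.23), with a 95% interval of -0.11 to 0.98, a limma adjusted p of 0.823, and a difference of 0.20 without occluded replicate 1. Ccl3, another ligand of Ccr1, had 7.32, 6.45 and 6.72 on the occluded side, against 6.80, 6.45 and 6.46 on the contralateral side. Here occluded replicate 1 carried the difference of 0.26 (SE 0.23), which was 0.02 without it. Ccl3 and Ccl4 overlap in the RefSeq annotation, and Ccl4 was on the other side of 0, at -0.15 (SE 0.11). Ccl5, a T cell attractant, had 5.75, 5.50 and 5.62 on the occluded side, against 5.48, 5.46 and 5.39 on the contralateral side. Its sides did not overlap, but its level lay under the median of the background genes; the difference was 0.18 (SE 0.10), or 0.12 without occluded replicate 1.

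Ccl2, the main monocyte attractant and ligand of Ccr2, had 6.73, 6.64 and 6.48 on the occluded side, against 6.74, 6.84 and 6.73 on the contralateral side. The occluded arrays lay below the contralateral ones, though occluded replicate 1 and contralateral replicate 3 were equal to 2 decimals, and the difference was -0.15 (SE 0.10). The neighbouring monocyte chemokines Ccl7, Ccl8 and Ccl12 were at 0.07 (SE 0.10), 0.04 (SE 0.10) and 0.00074 (SE 0.12). The ligands of Ccr3 that attract eosinophils, Ccl11 and Ccl24, were at -0.03 (SE 0.10) and -0.02 (SE 0.15). Ccl26, a Ccr3 ligand in human, was at -0.28 (SE 0.19), with 6.37, 6.00 and 6.73 on the occluded side, against 6.55, 6.59 and 6.79 on the contralateral side. Occluded replicate 2 was the lowest array and the sides overlapped. Ccl1, a ligand of Ccr8, was at 0.04 (SE 0.12).

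The homeostatic and mucosal CC ligands had 2 of 5 measured members above 0, and their median was -0.01. Ccl20, which attracts Ccr6-bearing lymphocytes and dendritic cells to mucosa, had 7.92, 7.64 and 7.76 on the occluded side, against 8.04, 7.98 and 7.83 on the contralateral side. Occluded replicate 1 lay within the contralateral range and the other occluded arrays below it; the difference was -0.18 (SE 0.11), or -0.25 without occluded replicate 1. Ccl28, a mucosal chemokine that draws antibody-secreting cells through Ccr10, had 8.50, 9.26 and 8.94 on the occluded side, against 8.63, 8.52 and 9.01 on the contralateral side. Arrays within a side spread as widely as the sides did, and the difference of 0.18 (SE 0.22) ran over -0.0017 to 0.38 as single arrays were left out. Ccl25, the ligand of Ccr9, had 7.25, 7.21 and 7.21 on the occluded side, against 7.24, 7.29 and 7.17 on the contralateral side. It was among the tightest of the measurements, with a difference of -0.01 (SE 0.08) and a 95% interval of -0.21 to 0.18. Ccl17 and Ccl22, which bind Ccr4, were at 0.02 (SE 0.09) and -0.02 (SE 0.12). Cx3cl1, a membrane-bound chemokine of neurons and endothelium, had 8.80, 8.33 and 8.44 on the occluded side, against 8.36, 8.08 and 8.46 on the contralateral side. Occluded replicate 1 was again the highest array; the difference was 0.22 (SE 0.16), or 0.08 without it. Xcl1, a lymphocyte product that attracts dendritic cells, and its receptor Xcr1 were at -0.03 (SE 0.13) and -0.06 (SE 0.15).

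Among the CC receptors 5 of 8 measured genes were above 0 (median 0.06), and none had a mean level above the 90th percentile of the background genes. Ccr3, the eosinophil receptor, had 6.78, 6.78 and 6.47 on the occluded side, against 5.88, 6.17 and 6.50 on the contralateral side. Occluded replicates 1 and 2 were above every contralateral array and replicate 3 just under the highest of them. Ccr3 averaged 6.68 ± 0.18 on the occluded side and 6.18 ± 0.31 on the contralateral side (SD, n = 3 each); its difference was 0.49 (SE 0.18), with a 95% interval of 0.07 to 0.91, or 1.41-fold higher, and the limma adjusted p was 0.823. Ccr1, the receptor of Ccl3, Ccl5 and Ccl9 on myeloid cells, had 7.35, 6.89 and 6.14 on the occluded side, against 6.28, 5.97 and 6.50 on the contralateral side. The occluded arrays spread widely and replicate 3 lay within the contralateral range. Its difference of 0.54 (SE 0.31) was the largest estimate of the 50, with a 95% interval of -0.18 to 1.27, and was 0.27 without occluded replicate 1. Ccr2, the monocyte receptor of Ccl2, had 6.45, 6.64 and 6.85 on the occluded side, against 6.34, 6.65 and 6.97 on the contralateral side and a difference of -0.01 (SE 0.18). Ccr7, which guides dendritic cells and T cells to lymph nodes, was at 0.10 (SE 0.24), or 0.05 without occluded replicate 1. Ccr10, Ccr6, Ccr9 and Ccr4, receptors of lymphocytes, were at 0.10 (SE 0.12), 0.02 (SE 0.11), -0.07 (SE 0.15) and -0.14 (SE 0.24).

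Of the 6 CXC receptors, 2 were above 0 and 4 below, with a median of -0.05. Cxcr4, the receptor of Cxcl12, had a strong and even signal, with 11.52, 11.61 and 11.52 on the occluded side, against 11.56, 11.65 and 11.54 on the contralateral side. The 2 sides covered nearly the same range. Its difference of -0.03 (SE 0.08) had a 95% interval of -0.23 to 0.17, equal to 0.850 to 1.12 times the contralateral level. Cxcr2, the neutrophil receptor of Cxcl1, Cxcl2 and Cxcl5, had 7.61, 6.79 and 7.58 on the occluded side, against 7.36, 6.88 and 7.20 on the contralateral side. Occluded replicate 2 was the lowest array and the other occluded arrays the highest. The difference was 0.18 (SE 0.25), or 0.04 without occluded replicate 1 and 0.45 without occluded replicate 2. Cxcr1, a related receptor, had 6.62, 6.70 and 6.50 on the occluded side, against 6.80, 6.79 and 6.79 on the contralateral side. The sides did not overlap, with an SD of 0.0054 among the contralateral arrays, and the gene lay in the background range; the difference was -0.19 (SE 0.09). Cxcr5 and Cxcr6 were at 0.19 (SE 0.28) and -0.06 (SE 0.10).

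The 4 atypical receptors all had small differences above 0, with a median of 0.08. Ackr3, which takes up Cxcl12, had 8.67, 8.38 and 8.47 on the occluded side, against 8.44, 8.46 and 8.40 on the contralateral side and a difference of 0.08 (SE 0.10). Ackr1, which binds many inflammatory chemokines on venules and red cells, had 8.14, 7.87 and 7.87 on the occluded side, against 7.89, 7.85 and 7.96 on the contralateral side and a difference of 0.06 (SE 0.11). In both, occluded replicate 1 was the highest array and the other occluded arrays lay near the contralateral ones. Their signs turned under all 3 other scalings and without occluded replicate 1, where Ackr3 was at -0.01 and Ackr1 at -0.03. Ackr4, which clears Ccl25 and related ligands, was at 0.09 (SE 0.10), or 0.01 without occluded replicate 1, and Ackr2, which clears inflammatory CC chemokines, at 0.08 (SE 0.12), or -0.04 without it. The median of the 4 receptors was -0.02 without occluded replicate 1, with 1 above 0, so no direction is given for them.

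Set beside a receptor they bind, ligands and receptors did not form a shared direction over the family. Ccl9 and Ccr1 both had estimates above 0, at 0.44 and 0.54, as did Cxcl13 and Cxcr5, at 0.26 and 0.19. Cxcl12 was at 0.27 while Cxcr4 was at -0.03. Cxcl10 and Cxcr3 were both below 0, at -0.11 and -0.42. Cx3cl1 was at 0.22, and its receptor Cx3cr1, a gene of macrophages and microglia that the symbol rule does not take in, was at 0.07 (SE 0.20), with a sign that turned under the 3 other scalings and without occluded replicate 1 or contralateral replicate 2.

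**Figure D3:**
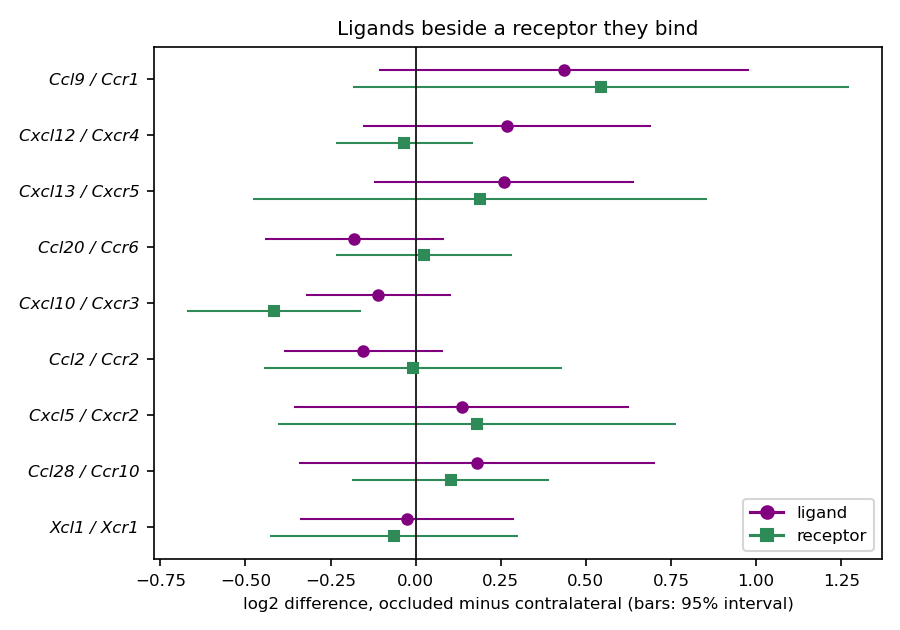
Log2 difference, occluded minus contralateral (x axis), with 95% intervals from limma, for 9 ligands (circles), each beside a receptor it binds (squares). The interval of Cxcr3 is the only one of the 18 plotted that excludes 0; Ccl9 and Ccr1 have the highest estimates of the plotted genes and wide intervals.

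Many of the genes lie in clusters on the mouse genome (GRCm38.p6), as tandem copies of related genes. With members up to 250 kb apart joined, 8 clusters held 30 of the 50 genes. On chromosome 11, Ccl5, Ccl9, Ccl3 and Ccl4 (chr11:83525778-83664683) had a median difference of 0.22, with 3 of 4 above 0. The other cluster of CC ligands on that chromosome, Ccl2, Ccl7, Ccl11, Ccl12, Ccl8 and Ccl1 (chr11:82035577-82179812), had a median of 0.02, with 4 of 6 above 0. On chromosome 5 the neutrophil attractants Cxcl5, Cxcl15, Cxcl1 and Cxcl2 (chr5:90759298-90905938) had a median of -0.10, and Cxcl9, Cxcl10 and Cxcl11 (chr5:92321331-92363296) also -0.10. On chromosome 9, Ccr1 and Ccr3 are neighbours within a cluster of 6 receptors (chr9:123767211-124109140) whose other members were at -0.01 (Ccr2), -0.07 (Ccr9), -0.06 (Cxcr6) and -0.06 (Xcr1). Near-identical neighbours can share probes, so values of single genes in such clusters are uncertain.

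Markers of the myeloid cells that carry several of these receptors mostly had differences above 0, as did 64.8% of all probe sets. In bulk tissue, a change in the number of cells of a type and a change in RNA per cell cannot be told apart. Of 11 measured macrophage and monocyte markers 11 were above 0, with a median difference of 0.33, with 0 past the test and 2 higher at an unadjusted p under 0.05 (3.81% of all probe sets); 8 lay above the 90th percentile of the background genes. Their summed level was 11.74 to 12.41 on the occluded side and 11.40 to 11.69 on the contralateral side. Without occluded replicate 1 their median was 0.13. Of 10 neutrophil markers 7 were above 0, with a median of 0.27, or 0.17 without occluded replicate 1, and 4 lay above the background percentile. Camp, Elane and Csf3r were below 0, at -0.06, -0.05 and -0.03. The summed level was 12.62 to 12.96 on the occluded side and 12.17 to 12.35 on the contralateral side. It is weighted to the strongest signals, Mmp9 (mean level 11.87) and Ltf (10.11), whose own sides overlapped. In 3 of the 10 markers the occluded side lay above without overlap (7.49% of all probe sets). All 6 markers shared by leukocytes were above 0, with a median of 0.26, or 0.11 without occluded replicate 1. All 8 endothelial markers were above 0, with a median of 0.36, or 0.20 without occluded replicate 1, and a summed level of 11.13 to 11.72 on the occluded side and 10.89 to 11.10 on the contralateral side. Among other cell types, markers of supporting cells and glands did not lay mostly above 0, with 3 of 7 measured above it. Their median was -0.05, or -0.0024 without occluded replicate 1. Their summed level was 14.368 to 14.436 on the occluded side and 14.438 to 14.475 on the contralateral side. Basal cell markers had 4 of 5 measured above 0, or 1 without occluded replicate 1. Connective tissue and olfactory neuron markers lay mostly above 0. All 8 connective tissue markers were above 0, with a median of 0.29, or 0.15 without occluded replicate 1, and a summed level of 15.38 to 15.63 on the occluded side and 15.24 to 15.38 on the contralateral side. Of 9 markers of mature olfactory neurons 8 were above 0, with a median of 0.17, or 0.15 without occluded replicate 1, and a summed level of 15.27 to 15.41 on the occluded side and 15.11 to 15.21 on the contralateral side. The B cell markers had a median of 0.0041, with 0 of 4 measured above the background percentile. Occluded replicate 1 was the highest array for the summed macrophage, neutrophil, common leukocyte, endothelial, connective tissue, olfactory neuron and basal cell markers, and also for the sum of all probe sets. Among the 50 genes it was the highest array in 14, while contralateral replicate 3 was the highest in 13. Those 14 were Ccl3, Ccl5, Ccl9, Cxcl12, Cxcl13, Cxcl17, Cx3cl1, Ccr1, Ccr3, Cxcr2 and the 4 atypical receptors. The part of these cells in the chemokine values was not tested.

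**Figure D4:**
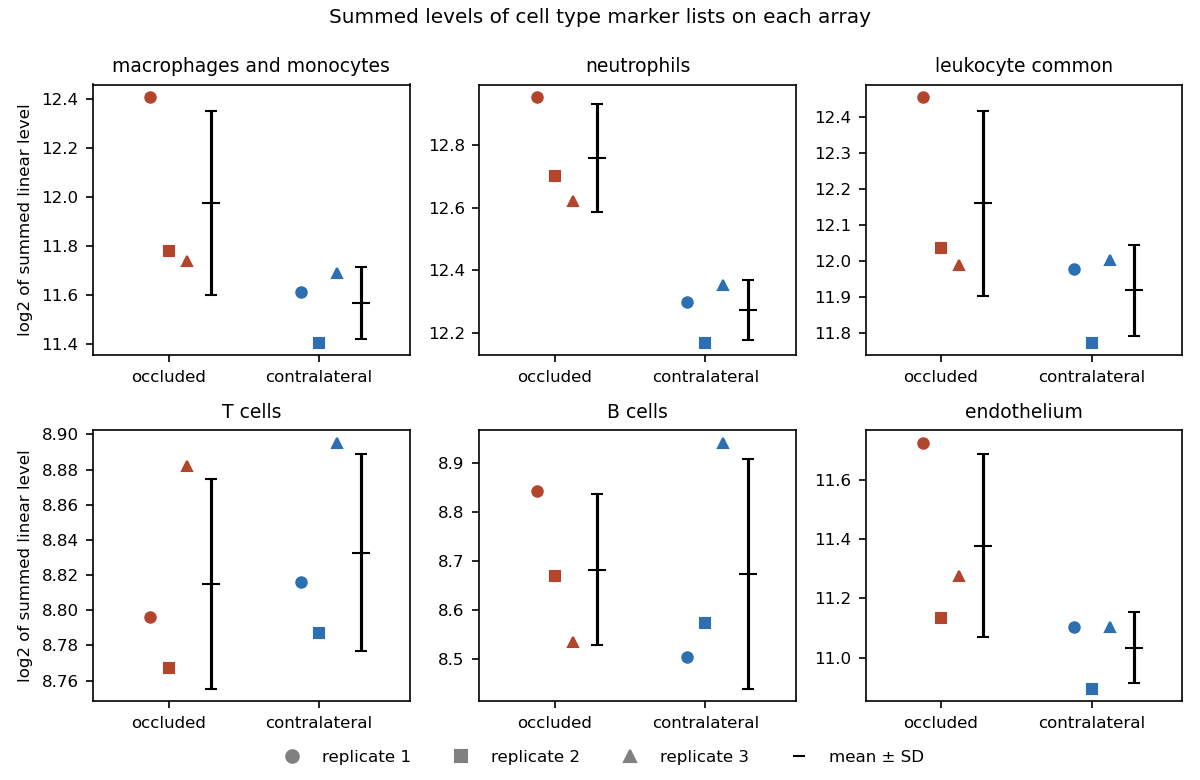
Log2 of the summed linear level of 6 lists of cell type markers (y axis, a scale of its own per panel) on each array, with the mean ± SD of 3 arrays per side; red points are occluded, blue points contralateral, and the shape gives the replicate number. The sides did not overlap for macrophage, neutrophil and endothelial markers, and overlapped for T cell, B cell and common leukocyte markers. Neutrophil markers ranged from 12.62 to 12.96 on the occluded side and from 12.17 to 12.35 on the contralateral side. That sum is weighted to Mmp9 and Ltf, whose own sides overlapped.

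Other genes of chemokine signalling gave the same count of limma calls, 0 in each of 4 lists, and in each list 1 gene had an unadjusted p under 0.05, with a difference above 0, where 3.81% of all probe sets were higher at that p. The counts above 0 that follow stand against 64.8% of all probe sets. Of 26 measured genes that act downstream of the receptors 22 were above 0, with a median of 0.10, or 0.01 without occluded replicate 1. Grk3, a kinase that desensitises receptors, was at 0.32 (SE 0.12), Rac1, a GTPase of cell movement, at 0.21 (SE 0.10), and Vav1, an activator of such GTPases in blood cells, at 0.29 (SE 0.15). Without occluded replicate 1 they were at 0.21, 0.18 and 0.15. Of 22 measured inducers of chemokines and their receptors 17 were above 0, with a median of 0.16, or 0.03 without occluded replicate 1. Ifngr1, an interferon gamma receptor chain, was at 0.33 (SE 0.13), the TNF receptor Tnfrsf1a at 0.35 (SE 0.17) and the cytokine Il1a at 0.25 (SE 0.11), the last at background. Without occluded replicate 1 these were 0.22, 0.18 and 0.25. Of 12 measured genes of leukocyte adhesion 11 were above 0, with a median of 0.19, or 0.05 without occluded replicate 1. The junction proteins Jam2 and Jam3 were at 0.38 (SE 0.12) and 0.23 (SE 0.13), and Itgam, an integrin of myeloid cells, at 0.30 (SE 0.16). Without occluded replicate 1 the values were 0.33, 0.13 and 0.12. For Jam2, the occluded values were 9.32, 9.21 and 9.11, against contralateral values of 8.96, 8.61 and 8.92. Its occluded side lay above without overlap, as in 7.49% of all probe sets. Of 5 measured relatives outside the symbol rule, 5 were above 0, with a median of 0.12. Pf4, a CXC chemokine of platelets and macrophages, had 7.75, 7.25 and 7.32 on the occluded side, against 7.11, 7.06 and 7.11 on the contralateral side and a difference of 0.35 (SE 0.14), or 0.19 without occluded replicate 1. Ppbp, another platelet CXC chemokine, was at 0.14 (SE 0.10), and Cmklr1, the receptor of chemerin, at 0.12 (SE 0.11), or 0.04 without that array.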

How the data were processed

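The deposited values are log2 expression levels of 6 Affymetrix Mouse Exon 1.0 ST arrays, made by the authors by RMA (Expression Console, core-gene analysis), per the labels; their range shows the log2 base. RMA makes arrays alike and can shrink shifts that many genes share. The platform annotation named a single gene for 14996 of 23332 probe sets, several for 1019 and none for 7317, and probe sets with several were not used to name genes; all 50 genes matched RefSeq by Entrez identifier. No depth applies to arrays, and their number limits the precision.

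The comparison used limma 3.58.1 under R 4.3.3 (lmFit, eBayes, two-sided, no replicate block) over all probe sets, with Benjamini-Hochberg adjustment at 0.05, and the fit was tested on simulated data. With 3 arrays a side, the smallest two-sided p of an exact permutation test is 0.1, and none was used. Genes and lists were chosen with earlier results of these data known. Named genes were the 6 with the smallest p in each direction, the smallest p of each role and of each pathway list (3 genes each), and fixed landmark genes, of which 1 is not reported here; every other member of the family is given by its value or by counts. Motifs were chosen after the upstream windows had been searched with other patterns for NF-κB and interferon-responsive elements, which are not reported. Alternatives were a replicate block, leaving out each array, 3 scalings, filters, variance models, array weights and other member rules.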

Additional observations from a re-analysis of the deposited data

How the results depend on the processing

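The number of the 50 genes past the threshold was 0 by limma in every alternative run, also at an adjusted p under 0.10 and with Cx3cr1, Ccrl2, Pf4 and Ppbp added; the smallest adjusted p was 0.0504, for Cxcr3 with array quality weights. The median difference of the 50 genes, -0.0037, was -0.083 with each array centred on its median and 0.10 over the genes above the background percentile, and -0.020 to 0.062 without single arrays. Genes at an unadjusted p under 0.05 numbered 0 to 4 higher and 0 to 7 lower over the alternatives, against 1 and 2, most with array weights (4 and 7); centring gave 6 lower. Over the whole array 62 probe sets passed with array weights, 1 with single-symbol probe sets only and 1 without contralateral replicate 2. Array weights (0.217 for occluded replicate 1, 7.02 for occluded replicate 3) turned Ccl9 to -0.014, Ccr1 to -0.019, Ccl26 to 0.066, Cxcl1 to 0.0022, Cxcl17 to -0.091, Ccr2 to 0.32, Ackr1 to -0.020 and Cmklr1 to -0.034. With centring, repeated quantile normalization and cyclic loess, Ackr1 was at -0.023, -0.018 and -0.017, Ackr3 at -0.0015, -0.0042 and -0.012, and Cx3cr1 at -0.0089, -0.0079 and -0.0058. The sign turned without some single array in 26 of the 50 genes, among them Cxcl5 (-0.0019 to 0.33), Cxcl1 (-0.27 to 0.078), Cxcl16 (-0.22 to 0.028), Cxcl17 (-0.026 to 0.22), Ccl28 (-0.0017 to 0.38), Ccr2 (-0.17 to 0.15), Cxcr4 (-0.062 to 0.0013), Ackr1 (-0.033 to 0.10) and Ackr3 (-0.0052 to 0.14), and also in Cx3cr1 (-0.063 to 0.27). The median of the inducers was 0.026 without occluded replicate 1. The cause of these changes was not tested. The deviations of same-numbered arrays from their side's mean had correlations of 0.0095, 0.17 and -0.04, and 1 of 3 occluded arrays was closest to its own number. With 3 arrays a side these values cannot show whether same-numbered arrays share a mouse. With the replicate block 0 of the 50 genes passed. Each gene had a single probe set, so using all probe sets gave no other value.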

Other observations

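A few probe sets next to the family fell outside its symbol rule. A probe set annotated to both Ccl6 and Ccl9, and so assigned to neither, had 7.39, 6.76 and 6.86 on the occluded side, against 6.64, 6.50 and 6.33 on the contralateral side. Its sides did not overlap (10.7% of all probe sets), its difference was 0.51 (SE 0.18), or 0.32 without occluded replicate 1, and its limma adjusted p was 0.823. Ccr1l1, a Ccr1-like gene that lies between Ccr1 and Ccr3, had 6.85, 6.75 and 7.25 on the occluded side, against 7.22, 7.36 and 7.40 on the contralateral side and a difference of -0.38 (SE 0.15), opposite in sign to both neighbours. A probe set annotated to both Cxcl3 and Cxcl15 was at -0.10 (SE 0.10).

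Of the genes listed as inducers of chemokines 8 are secreted cytokines, and all 8 lay at background; they were singled out after their values had been seen. Il1a was at 0.25 (SE 0.11) and Csf2 at 0.25 (SE 0.12). In Csf2 every occluded array lay above the contralateral ones (7.49% of all probe sets). Its mean level of 5.83 was under the median of the background genes, 6.15. Tnf was at 0.05 (SE 0.12), Il1b at 0.05 (SE 0.13), Il6 at -0.09 (SE 0.10), Il17a at -0.10 (SE 0.09), Ifng at -0.04 (SE 0.11) and Csf3 at -0.02 (SE 0.10), with overlapping sides in all 6.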
